A study of Homo sapiens with 6 samples.

Results

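MOLM13, a human acute myeloid leukemia cell line that carries an internal tandem duplication of FLT3 and the t(9;11)(p22;q23) translocation, was treated for 24 h with DMSO, the vehicle, or with 1 μM ZW27941. ZW27941 is a degrader that brings METTL3, the catalytic subunit of the m6A RNA methyltransferase, to the VHL ubiquitin ligase. Each condition had 3 RNA-seq libraries, and both carry the same genotype, since all come from this 1 line. The labels do not say that the libraries came from separate cultures, so the p-values measure the spread between these libraries, which may be technical. The genes described here are 48 interferon-stimulated genes and sensors of double-stranded RNA, found by symbol among the 56305 genes of the deposited count files. All 48 were listed. They were split by role into a sensor arm of 16 genes, with the sensors, their adaptor, the interferon regulatory factors, STAT2 and the type I interferon receptor, and an effector arm of the other 32 genes.

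Cells recognize long double-stranded RNA as a sign of infection. RIG-I (gene DDX58) and MDA5 (gene IFIH1) bind it in the cytosol and signal through the adaptor MAVS to the transcription factors IRF3 and IRF7, which switch on interferon genes. Secreted type I interferon then binds the receptor IFNAR1/IFNAR2, and a complex that holds STAT2 and IRF9 binds the interferon-stimulated response element (ISRE) in the promoters of the effector genes. The enzyme ADAR edits double-stranded RNA of the cell itself and so keeps it from being sensed. Loss of m6A has been linked in other cells to more of such RNA and to this response.

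The members moved in both directions at 24 h, and not as 1 block. Of the 46 members that could be tested, 12 rose on ZW27941 and 12 fell (edgeR, adjusted p under 0.05), while 22 did not pass. Among all genes tested, 16.3% rose and 13.8% fell (30.1% together). Classic interferon-induced genes were among those that did not pass, ISG15, IFIT1 and MX1 included. The members that passed moved by small amounts. Members of the oligoadenylate synthetase family, the endosomal receptors TLR7 and TLR8, MX2, SAMD9, PARP9 and IFIT2 rose, by 1.09-fold to 1.39-fold. IFI27, IFI44L, IFI6, IFITM3, IRF7 and DHX58 fell, to between 0.676 and 0.868 of their DMSO level.

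The libraries held between 143454176 and 178744976 counts on genes. This is more than the number of raw reads per sample in the labels, and the sources used here do not give the reason, so limits from counting error hold for counts as the files give them. The deposited values are raw counts, and levels are given as CPM, the count scaled to a library of fixed size after edgeR's TMM normalization, with the spread over 3 libraries as the SD. Tests were edgeR's quasi-likelihood test over all 20399 genes that passed its expression filter, with p-values adjusted by the Benjamini-Hochberg method over all of them (called the adjusted p from here on). METTL3 RNA had a log2 fold change of 0.013 (adjusted p = 0.765), and since the degrader acts on the protein this does not check the treatment. Of the 16 markers of myeloid leukemia cells, 15 were above 1 CPM, the exception being CD68 at 0.231 CPM in DMSO. Many markers of other cell types were at or near 0, with CD3E, CD3G, MS4A1, HBB, HBA1, EPCAM, KRT19, COL1A2 and COL3A1 each at a mean of 0.0287 CPM or less in both conditions. Among the others, NKG7 was at 59.4, TCF4 at 13.4 and KRT8 at 7.49 CPM in DMSO and did not pass. PAX5, a B-cell factor, was at 25.8 CPM in DMSO and rose on ZW27941 (log2 fold change 0.12, adjusted p = 0.00562). IL3RA, which leukemia cells also express, was at 83.0 CPM in DMSO and fell (log2 fold change −0.24, adjusted p = 2.36e-06). The myeloid markers summed to between 3064.7 and 3124 CPM in the DMSO libraries and to between 3337 and 3408 CPM on ZW27941. Of these 16 markers, 7 rose and 1 fell, beside 16.3% higher and 13.8% lower among all genes tested. Their part in the results was not tested. Fewer cells that express a gene and less RNA per cell cannot be told apart in bulk RNA.

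Levels between genes were compared per length, as mean CPM per kilobase of the longest annotated transcript (GENCODE v29). In DMSO the highest member was BST2 (tetherin, which holds budding virus at the cell surface), at 133.8 ± 2.83 CPM per kilobase (SD, n = 3). TRIM22, an antiviral ubiquitin ligase, followed at 53.1 ± 0.277 and ADAR at 52.1 ± 1.11 CPM per kilobase (SD, n = 3 each), and these neighbours lay within 1 SD of each other. STAT2 was at 48.4 ± 1.51, IRF3 at 38.2 ± 1.74 and XAF1, a proapoptotic gene, at 38.1 ± 0.528 CPM per kilobase (SD, n = 3 each). The sensors DDX58 and IFIH1 were lower, at 7.68 and 5.78 CPM per kilobase. Of the 10 highest members per length, 4 belonged to the sensor arm. Effectors were spread over the whole order, from IFI6 at 19.5 and ISG15 at 9.17 to IFI44L at 0.781, IFIT1 at 0.771, MX1 at 0.720 and ISG20 at 0.402 CPM per kilobase. The longest transcript has 5634 bases for ISG20 and 5874 for IFI44L. Whether the cells make these transcripts was not tested, so the order holds for this choice of length only. In the annotation 38.3% of the exon bases of XAF1 are shared with PRAL.

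**Figure D1:**
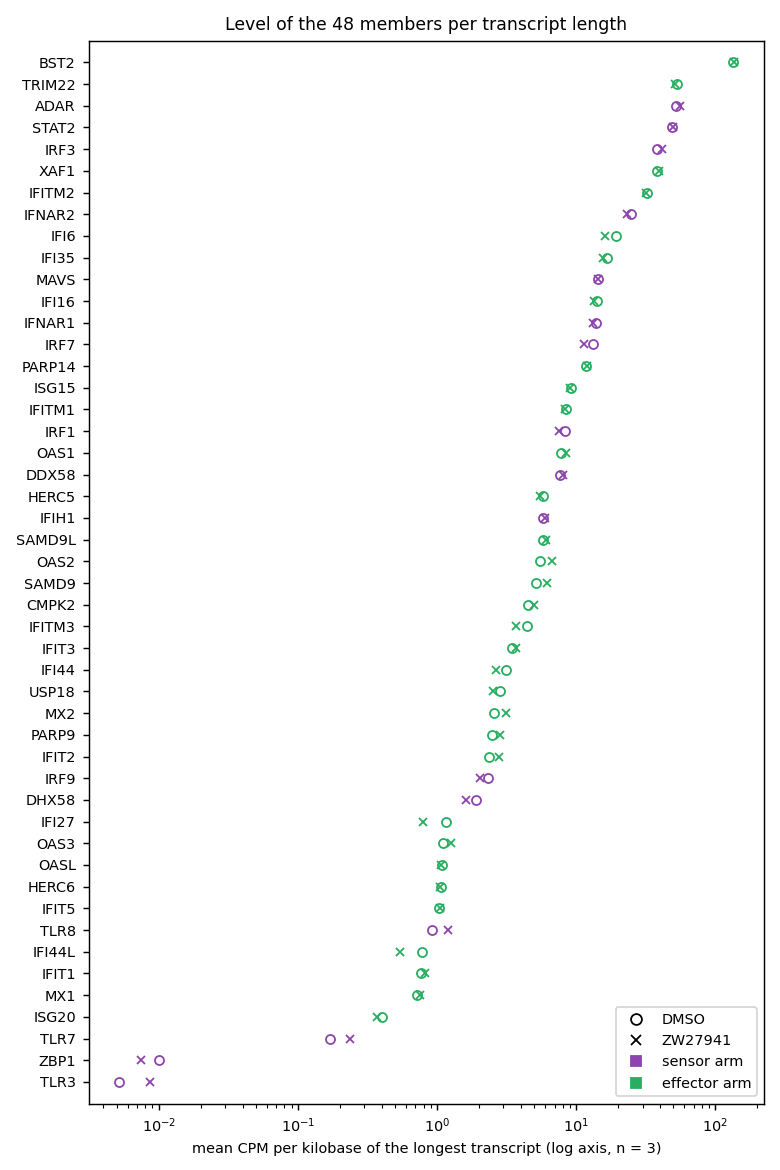
The horizontal axis gives the mean CPM per kilobase of the longest transcript on a log axis (n = 3 libraries), for all 48 members ordered by their DMSO level. Open circles are DMSO and crosses are ZW27941, purple for the sensor arm and green for the effector arm. BST2 is highest at 133.8 in DMSO, and TLR3 and ZBP1 stand apart at the bottom.

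TLR3 and ZBP1 had too few counts to be tested. TLR3, the endosomal receptor for double-stranded RNA, had 4, 6 and 4 counts in the DMSO libraries and 12, 4 and 10 on ZW27941. ZBP1, a sensor of Z-form nucleic acid, had 4, 7 and 8 counts in DMSO and 6, 6 and 3 on ZW27941. Both overlapped between conditions, and a change was not detectable at this depth. The genes for the interferons themselves were nearly silent. Of 21 type I, II and III interferon genes, 14 had no count in any library, which at this depth allows a level of up to 0.0166 to 0.0209 CPM per library (3 counts, counting error only). IFNB1 had the most, with 5, 6 and 4 counts in DMSO and 8, 3 and 2 on ZW27941, and no other interferon gene exceeded 4 counts in a library. All 21 together summed to between 3 and 13 counts per library.

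Among the cytosolic sensors, the first receptors of the pathway did not pass the test. DDX58 was at 33.4, 33.3 and 33.6 CPM in the DMSO libraries and at 36.1, 35.5 and 33.1 CPM on ZW27941. Its log2 fold change was 0.062, with a 95% interval from −0.0055 to 0.13 (adjusted p = 0.163). IFIH1 was at 20.0, 20.7 and 21.7 CPM in DMSO and at 21.8, 21.3 and 21.6 CPM on ZW27941, and its log2 fold change of 0.050 had an interval from −0.022 to 0.12 (adjusted p = 0.306). For both genes the conditions overlapped. Without ZW27941 replicate 3, its lowest ZW27941 library, the DDX58 log2 fold change was 0.096 and passed (adjusted p = 0.0213 in the same edgeR test).

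DHX58 encodes LGP2, a relative of both sensors that modulates their signal. It was at 4.79, 5.25 and 4.85 CPM in DMSO and at 4.33, 4.16 and 4.24 CPM on ZW27941, so all ZW27941 libraries lay below all DMSO libraries. It fell to 0.855 of the DMSO level (log2 fold change −0.23, SE 0.067, adjusted p = 0.0132). Without DMSO replicate 2 its adjusted p was 0.0824.

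TLR7 and TLR8, endosomal receptors for single-stranded RNA that lie next to each other on chromosome X, rose by more than any other member. TLR7 was at 0.726, 0.988 and 0.837 CPM in DMSO and at 1.23, 1.22 and 1.09 CPM on ZW27941. It rose 1.39-fold (log2 fold change 0.47, SE 0.13, adjusted p = 0.00625). TLR8 was at 3.49, 3.78 and 4.41 CPM in DMSO and at 5.17, 5.17 and 4.86 CPM on ZW27941. The rise was 1.3004-fold (log2 fold change 0.38, SE 0.078, adjusted p = 8.16e-04). Neither gene overlapped between conditions. Both are at low levels, with a mean of 159 counts per library for TLR7 and 699.7 for TLR8. Of the 16 myeloid markers, 7 rose and 1 fell, while others, such as CD33 and FLT3, did not pass. Among all genes tested 16.3% rose and 13.8% fell, or 21.7% and 17.3% of those with a mean of at least 100 counts. The largest rises among the markers were in CSF1R, the receptor for macrophage colony-stimulating factor, and LYZ, lysozyme. Their log2 fold changes were 0.40 and 0.27 (adjusted p = 4.69e-10 and 3.74e-07). CD14 was the marker that fell, with a log2 fold change of −0.39 (adjusted p = 0.0112). The part of these markers in the rise of TLR7 and TLR8 was not tested.

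ADAR, the most abundant sensor-arm member per length, was at 380.0, 367 and 366 CPM in DMSO and at 403, 391 and 391.95 CPM on ZW27941. The lowest ZW27941 library lay above the highest DMSO library. The rise was small, 1.07-fold (log2 fold change 0.092, SE 0.025, adjusted p = 0.00723).

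The adaptor and the factors below the sensors moved in both directions. MAVS, the mitochondrial adaptor, was at 173, 167 and 162 CPM in DMSO and at 172, 169 and 163 CPM on ZW27941, with a log2 fold change of 0.0082 (95% interval from −0.049 to 0.065, adjusted p = 0.856). The sign of this value turned to −0.015 with upper quartile normalization. IRF3, the first factor that MAVS activates, was at 106, 115 and 107 CPM in DMSO and at 115, 117 and 124 CPM on ZW27941, and the highest DMSO library reached the lowest ZW27941 library. Its log2 fold change was 0.11 (SE 0.032, adjusted p = 0.00880), and it no longer passed without DMSO replicate 1 or without DMSO replicate 3 (the higher adjusted p was 0.0683).

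IRF7, which amplifies the interferon signal and is itself interferon-induced, was at 27.2, 26.8 and 26.9 CPM in DMSO and at 24.1, 21.6 and 24.4 CPM on ZW27941. All ZW27941 libraries were below all DMSO libraries, and the level fell to 0.868 of DMSO (log2 fold change −0.20, SE 0.038, adjusted p = 2.71e-04). IRF1, a factor for interferon-gamma targets, was at 44.2, 42.3 and 42.3 CPM in DMSO and at 38.5, 38.8 and 39.7 CPM on ZW27941. It also separated the conditions and fell to 0.909 of DMSO (log2 fold change −0.14, SE 0.029, adjusted p = 0.00106). In the annotation, 22.0% of the exon bases of IRF1 and 19.4% of those of IRF3 are shared with overlapping genes. Whether counting used strand is not given in the sources used here, so reads there could have been left out or assigned to a neighbour.

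The receptor for type I interferon was lower in both of its chains. IFNAR2 was at 106, 106 and 106 CPM in DMSO and at 99.7, 101 and 96.8 CPM on ZW27941, a log2 fold change of −0.097 (SE 0.025, adjusted p = 0.00489). IFNAR1 was at 85.0, 83.6 and 87.1 CPM in DMSO and at 82.0, 82.3 and 78.3 CPM on ZW27941, a log2 fold change of −0.076 (SE 0.027, adjusted p = 0.0381). In both genes all ZW27941 libraries lay below all DMSO libraries, but the changes were small. IFNAR2 fell by 6.51%, and IFNAR1 fell by 5.15%. IFNAR1 missed the threshold in 6 of 15 alternatives, among them library size only, no filter, the replicate block and the fit without DMSO replicate 1. In the annotation 83.2% of the exon bases of IFNAR2 are shared with readthrough or antisense genes.

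STAT2 and IRF9, partners in the factor that binds the ISRE, did not pass. STAT2 was at 154, 164 and 158 CPM in DMSO and at 158, 162 and 165 CPM on ZW27941, a log2 fold change of 0.027 (95% interval from −0.028 to 0.083, adjusted p = 0.488). IRF9 was at 4.33, 3.87 and 4.57 CPM in DMSO and at 3.83, 3.96 and 3.40 CPM on ZW27941, a log2 fold change of −0.19 (95% interval from −0.36 to −0.025, adjusted p = 0.0772). The interval for IRF9 was the widest towards lower values among the members that did not pass, and 48.4% of its exon bases are shared with another annotated gene. IRF9 passed with upper quartile normalization and without DMSO replicate 2.

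**Figure D2:**
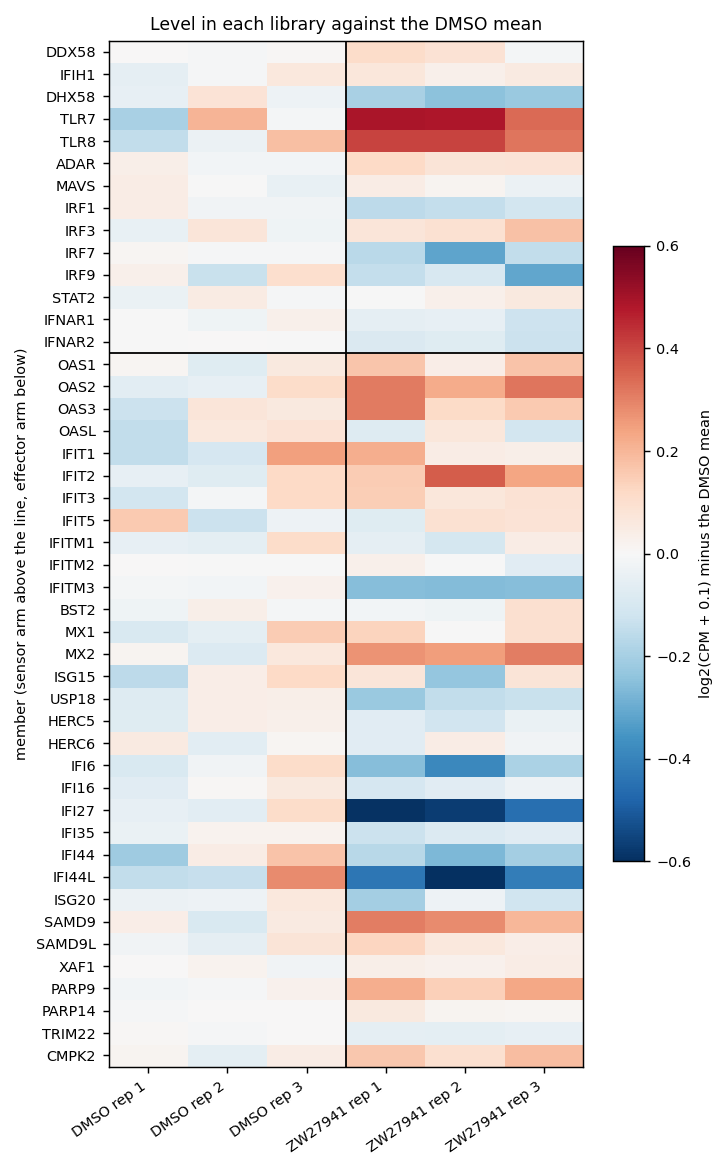
Each row is 1 of the 46 members tested and each column is 1 library. The color gives log2(CPM + 0.1) minus the mean of the 3 DMSO libraries, from −0.6 (dark blue) to 0.6 (dark red), with the sensor arm above the line. The TLR7, TLR8, OAS2, MX2 and SAMD9 rows are red and the IFI27, IFI44L and IFITM3 rows are blue in all 3 ZW27941 libraries.

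In the effector arm, the oligoadenylate synthetases make a small messenger molecule, linked adenylates, when they bind double-stranded RNA. Of the 4 family members, 3 rose and none fell, beside 16.3% higher and 13.8% lower among all genes tested. OAS2 was at 24.9, 25.2 and 28.1 CPM in DMSO and at 32.3, 30.4 and 32.6 CPM on ZW27941, a 1.22-fold rise with no overlap (log2 fold change 0.28, SE 0.040, adjusted p = 1.20e-05). OAS3 was at 6.73, 7.75 and 7.68 CPM in DMSO and at 9.17, 8.0032 and 8.22 CPM on ZW27941. It rose 1.15-fold, again with no overlap (log2 fold change 0.20, SE 0.065, adjusted p = 0.0242), but did not pass without DMSO replicate 1 or without ZW27941 replicate 1 (adjusted p up to 0.159). OAS1 was at 18.8, 17.7 and 19.4 CPM in DMSO and at 20.9, 19.2 and 21.0 CPM on ZW27941, so the lowest ZW27941 library lay within the DMSO range. It rose 1.09-fold (log2 fold change 0.13, SE 0.041, adjusted p = 0.0201) and did not pass in 4 of 15 alternatives, upper quartile normalization and the fits without DMSO replicate 2, ZW27941 replicate 1 or ZW27941 replicate 3. These genes lie side by side on chromosome 12 (OAS1 at chr12:112906777-112933222, OAS3 at chr12:112938352-112973249, OAS2 at chr12:112978395-113011723 in GRCh38). OASL, farther along the same chromosome, was at 3.21, 3.73 and 3.77 CPM in DMSO and at 3.37, 3.75 and 3.30 CPM on ZW27941 and did not pass (adjusted p = 0.729).

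Some of the IFIT proteins bind foreign RNA by its 5′ end. Of the 4 family members 1 passed (25%, beside 30.1% of all genes tested), and this was IFIT2. It was at 8.41, 8.29 and 9.48 CPM in DMSO and at 9.68, 11.2 and 10.3 CPM on ZW27941, a 1.1903-fold rise with no overlap (log2 fold change 0.25, SE 0.061, adjusted p = 0.00298). IFIT1 was at 3.17, 3.29 and 4.21 CPM in DMSO and at 4.12, 3.64 and 3.62 CPM on ZW27941, where DMSO replicate 3 was the highest library of all. Its log2 fold change was 0.094 (95% interval from −0.10 to 0.29, adjusted p = 0.495), and the upper end of this interval, a 1.22-fold rise, was the highest among the 22 members that did not pass. IFIT3 and IFIT5 had log2 fold changes of 0.098 and 0.031 (adjusted p = 0.221 and 0.811). Without DMSO replicate 2 the value for IFIT5 turned to −0.033.

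The MX proteins are GTPases that trap incoming virus. MX2 was at 10.6, 9.91 and 11.0 CPM in DMSO and at 12.7, 12.5 and 13.0 CPM on ZW27941, with no overlap and a 1.21-fold rise (log2 fold change 0.28, SE 0.046, adjusted p = 9.68e-05). Per length MX1 was lower, at 0.720 CPM per kilobase in DMSO against 2.58 for MX2. MX1 was at 2.33, 2.39 and 2.77 CPM in DMSO and at 2.75, 2.48 and 2.66 CPM on ZW27941, and did not pass (log2 fold change 0.076, 95% interval from −0.11 to 0.26, adjusted p = 0.562).

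Other effectors that rose were SAMD9, PARP9 and CMPK2. SAMD9, an antiviral protein that also restrains growth of blood cells, was at 36.4, 33.2 and 36.7 CPM in DMSO and at 43.8, 43.1 and 40.6 CPM on ZW27941. Its 1.20-fold rise had no overlap (log2 fold change 0.26, SE 0.037, adjusted p = 1.20e-05). SAMD9L, its neighbour on chromosome 7, had a log2 fold change of 0.077 and did not pass (adjusted p = 0.0927), although it passed with no filter and without DMSO replicate 3 or ZW27941 replicate 3. PARP9, an ADP-ribosyltransferase that acts with DTX3L in interferon signalling, was at 16.6, 16.7 and 17.1 CPM in DMSO and at 19.5, 18.6 and 19.7 CPM on ZW27941 (log2 fold change 0.20, SE 0.036, adjusted p = 1.93e-04). DTX3L, which starts beside PARP9 and is not 1 of the 48 genes, rose as well (log2 fold change 0.14, SE 0.029, adjusted p = 0.00117). CMPK2, a mitochondrial nucleotide kinase, was at 13.2, 12.5 and 13.4 CPM in DMSO and at 14.6, 13.9 and 14.8 CPM on ZW27941 (log2 fold change 0.15, SE 0.042, adjusted p = 0.00959), and its adjusted p was 0.0801 without DMSO replicate 2. The conditions did not overlap in PARP9, DTX3L or CMPK2.

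The genes named IFI (interferon-inducible) were mostly lower. Of the 6, 5 were lower and none was higher, beside 13.8% lower and 16.3% higher among all genes tested. IFI27, a small mitochondrial protein, was at 2.74, 2.71 and 3.07 CPM in DMSO and at 1.84, 1.87 and 2.04 CPM on ZW27941, or 2.84 ± 0.201 CPM against 1.92 ± 0.106 CPM (mean ± SD, n = 3 each). The fall to 0.676 of DMSO was the largest of any member (log2 fold change −0.57, SE 0.087, adjusted p = 3.79e-05). IFI44L, a feedback regulator of the interferon response, was at 4.10, 4.12 and 5.55 CPM in DMSO and at 3.33, 2.91 and 3.38 CPM on ZW27941. The spread was wide in DMSO, where replicate 3 was highest, but no library overlapped, and the level fell to 0.700 of DMSO (log2 fold change −0.51, SE 0.099, adjusted p = 3.96e-04). Without DMSO replicate 3 the log2 fold change of IFI44L was −0.35.

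IFI44, next to IFI44L on chromosome 1, was at 4.48, 5.39 and 5.88 CPM in DMSO and at 4.64, 4.31 and 4.52 CPM on ZW27941. Here DMSO replicate 1 lay within the ZW27941 range, and the fall (log2 fold change −0.23, SE 0.081, adjusted p = 0.0382) did not pass without DMSO replicate 3 (log2 fold change −0.14, adjusted p = 0.265). It did not pass without DMSO replicate 2 or ZW27941 replicate 2 either, nor after thinning to the smallest library total. IFI6, which protects mitochondria and blocks flavivirus replication, was at 15.4, 16.1 and 17.7 CPM in DMSO and at 13.7, 12.5 and 14.4 CPM on ZW27941, with no overlap (log2 fold change −0.28, SE 0.051, adjusted p = 2.46e-04). IFI35 was at 20.2, 21.0 and 21.0 CPM in DMSO and at 18.963, 19.6 and 19.7 CPM on ZW27941 (log2 fold change −0.094, SE 0.034, adjusted p = 0.0408), with no overlap, and missed the threshold in 8 of 15 alternatives. IFI16, a DNA sensor, did not pass (log2 fold change −0.069, adjusted p = 0.103), but was lower past the threshold with upper quartile normalization and without DMSO replicate 1 or ZW27941 replicate 3.

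The IFITM proteins block the fusion of virus with endosomes. IFITM3 was at 3.56, 3.55 and 3.66 CPM in DMSO and at 2.99, 2.98 and 2.98 CPM on ZW27941, so both groups were tight and apart (log2 fold change −0.27, SE 0.074, adjusted p = 0.00875). Its close paralogs IFITM2 and IFITM1 had log2 fold changes of −0.012 and −0.040 (adjusted p = 0.811 and 0.688). BST2 was at 134, 139.6 and 135 CPM in DMSO and at 135, 134 and 146 CPM on ZW27941, with overlap and a log2 fold change of 0.018 (adjusted p = 0.698), which turned to −0.0054 (BST2 log2 fold change with upper quartile normalization). Reads of near-identical IFITM sequence could have been split between paralogs or left out in counting, and in the annotation 21.3% of the exon bases of IFITM3 are shared with AC136475.5 and 32.5% of those of IFITM1 with IFITM2.

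ISG15 is a ubiquitin-like modifier, HERC5 its ligase and USP18 the protease that removes it. ISG15 was at 6.43, 7.41 and 7.81 CPM in DMSO and at 7.56, 6.10 and 7.59 CPM on ZW27941, where replicate 2 was the lowest library of all. Its log2 fold change of −0.025 had a 95% interval from −0.19 to 0.14 (adjusted p = 0.849). USP18 was at 5.76, 6.25 and 6.23 CPM in DMSO and at 5.20, 5.49 and 5.52 CPM on ZW27941 and was lower with no overlap (log2 fold change −0.17, SE 0.063, adjusted p = 0.0422), but missed the threshold in 7 of 15 alternatives. HERC5 and HERC6 did not pass (log2 fold changes −0.076 and −0.017, adjusted p = 0.132 and 0.883), but HERC5 passed as lower with upper quartile normalization and without DMSO replicate 1.

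The remaining members, PARP14, TRIM22, XAF1 and ISG20, did not pass, with log2 fold changes of 0.029, −0.054, 0.036 and −0.13 (adjusted p = 0.414, 0.0871, 0.286 and 0.308). For TRIM22, the ZW27941 libraries at 153, 152 and 153 CPM all lay below the DMSO libraries at 159, 158 and 159 CPM, and the difference passed with upper quartile normalization and with DESeq2.

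**Figure D3:**
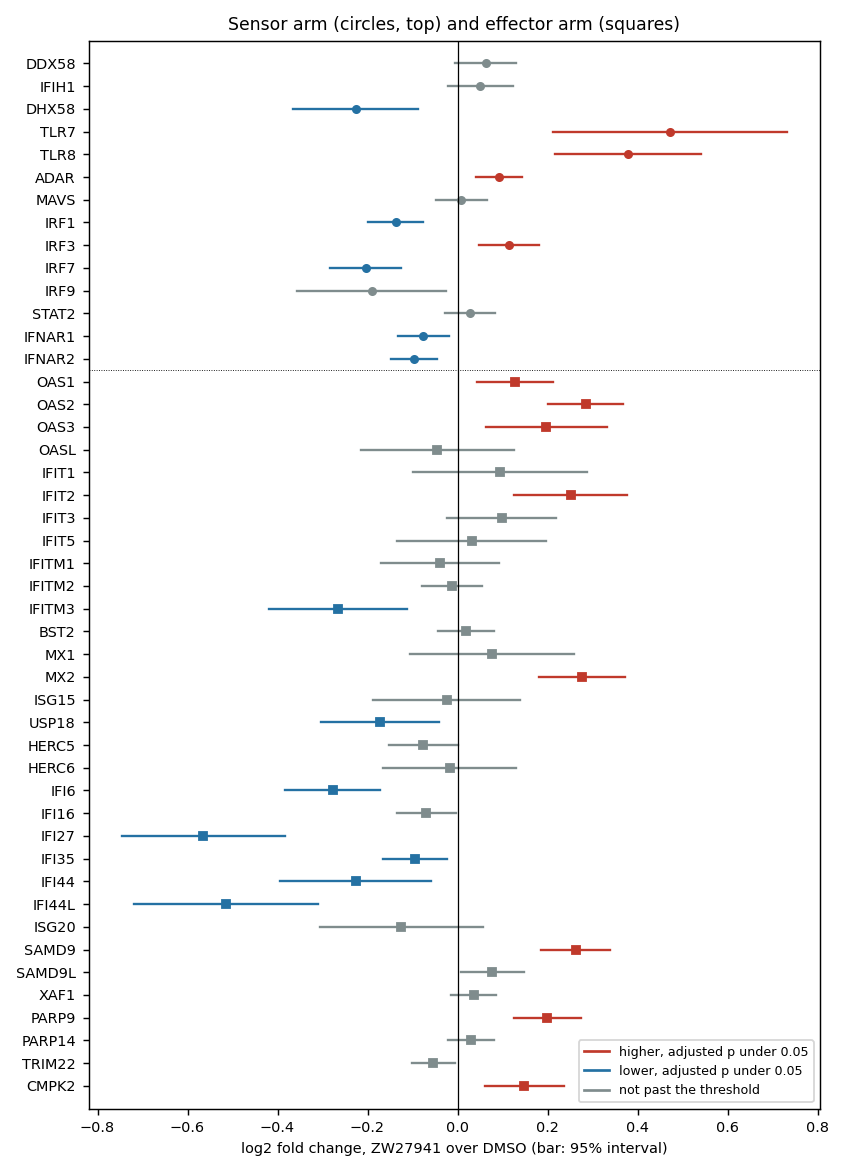
Points give the log2 fold change of ZW27941 over DMSO from edgeR for the 46 members tested, and bars its 95% interval (3 libraries against 3). Circles are the sensor arm and squares the effector arm, red for higher and blue for lower at an adjusted p under 0.05, gray for the rest. The values run from −0.57 for IFI27 to 0.47 for TLR7.

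The 2 arms were then compared by counts and medians, as a description with no test. In the sensor arm, 14 of 16 members were tested, 4 were higher and 5 were lower, and the median log2 fold change was 0.018. In the effector arm all 32 were tested, 8 were higher and 7 were lower, and the median was 0.0029. The number of lower effectors was 4 without DMSO replicate 2, without DMSO replicate 3 or without ZW27941 replicate 2. The median over all genes tested was −0.0019. Neither arm thus moved one way, and the difference between the medians, 0.015, ran from −0.012 to 0.035 when 1 library was left out. The median level of the effector arm against the DMSO mean spread from −0.044 to 0.060 among the DMSO libraries alone and from 0.0073 to 0.036 on ZW27941. For the sensor arm the ranges were −0.0072 to −0.0026 and −0.024 to 0.023. By role, 3 of the 6 sensors tested rose, TLR7, TLR8 and ADAR, and 1 fell, DHX58, while DDX58 and IFIH1 did not pass. Of those that rose, TLR7 and TLR8 are receptors for single-stranded RNA, and ADAR keeps RNA from being sensed. Among the 8 adaptors, factors and receptors, 1 rose and 4 fell. Of all genes tested, 16.3% rose and 13.8% fell.

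Calls were common among all genes. The threshold was passed by 30.1% of the 20399 genes, 16.3% higher and 13.8% lower, against 52.2% of the 46 members. Among the 14316 genes with a mean of at least 100 counts, a limit that every tested member passed and that was chosen after seeing the data, 39% were called, 21.7% higher and 17.3% lower. Among the members, 26.1% were higher and 26.1% lower, in equal number. All ZW27941 libraries lay above all DMSO libraries in 12 members and below in 12, together 52.2% of those tested, against 21.7% above, 19.9% below and 41.6% together of all genes. An absolute log2 fold change over 0.5 together with an adjusted p under 0.05 was reached by 2 members, IFI27 and IFI44L, against 3.79% of all genes. With upper quartile normalization 11 members were higher and 16 lower, and the calls over all genes turned the same way. They were 2644 for all genes, higher, and 3643 for all genes, lower, against 3333 and 2816 with TMM.

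To set members against each other without any normalization, 6 ratios of counts were formed within each library, for pairs chosen after their values were seen. The log2 ratio of OAS2 to IFI44L was 2.61, 2.61 and 2.34 in the DMSO libraries and 3.28, 3.39 and 3.27 on ZW27941, a mean difference of 0.79. SAMD9 against SAMD9L gave log2 ratios of −0.16, −0.26 and −0.24 in DMSO and −0.044, 0.0039 and −0.057 on ZW27941. The ratio of IFITM3 to IFITM2 was −3.01, −3.01 and −2.97 in DMSO and −3.29, −3.26 and −3.20 on ZW27941, again on the log2 scale. The mean difference was 0.20 for MX2 to MX1, 0.33 for OAS2 to OASL and 0.15 for IFIT2 to IFIT3, and only the last of the 6 pairs overlapped between conditions. Since a member that passed was set against one that did not pass or that moved the other way, the separation follows from the choice of pairs. The ratios are a description, with no test.

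**Figure D4:**
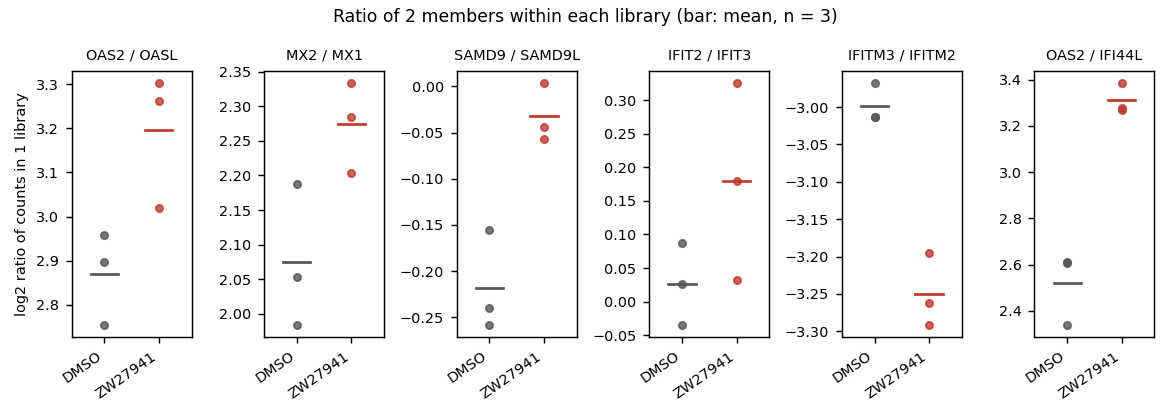
Each panel gives the log2 ratio of the counts of 2 members within 1 library, for 3 DMSO (gray) and 3 ZW27941 (red) libraries, with bars at the means. The panels have separate vertical axes. The groups are apart in all pairs but IFIT2 to IFIT3, and farthest for OAS2 to IFI44L.

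The promoters of the members were searched for the core of the ISRE, the letters GAAA, any 2 bases and GAAA again, on either strand, in windows from 250 bases before to 50 bases after each start site in RefSeq (GRCh38.p14). Of the 48 members, 35 had at least 1 promoter in the table, DDX58 under its newer symbol RIGI. A core was found in 20 of these 35 members (57.1%), against 4.38% of all 27305 genes with a promoter in the table. Counted by promoter, it was in 50.0% of 48 member promoters against 3.57% of 35116. The effector arm held it in 18 of 25 members and the sensor arm in 2 of 10. Start sites of 1 gene can lie so close that their windows share a core, as in IFI27 and IFI44, so the 43 cores listed over all promoters were 40 distinct places in the genome. Of the 43 listed, 42 began within 200 bases before their start site. The gamma-activated site, TTCNNNGAA, was in 10 of the 35 members (28.6%) and in 9.38% of all genes.

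Having a core with exactly 2 bases between its repeats did not go with 1 direction. Among all genes tested 16.3% were higher and 13.8% lower, or 21.7% and 17.3% of those with a mean of at least 100 counts. Of the 19 tested members with a core, 3 were higher, 5 were lower and 11 did not pass, with a median log2 fold change of 0.018. Of the 15 without a core in this window, 4 were higher, 3 were lower and 8 did not pass, with a median of 0.027. Some of these, such as OAS1, DDX58 and IFI35, hold GAAA, 1 base and GAAA again, which the search did not count. The 2 groups therefore do not divide members with and without any such repeat, and no conclusion is drawn from comparing them. The 170 bases before the start site are printed for 8 members, chosen so that genes that fell, rose and did not pass can be read side by side. For IFI27 and PARP9, which have more than 1 annotated start site, 1 with a core was taken. They run 5′ to 3′ on the strand of the gene in lower case, with ISRE cores in capitals.
Lower on ZW27941 were IFI6 (chr1:27672193-27672362, minus strand), IFI27 (chr14:94110566-94110735, plus strand) and IFI44L (chr1:78620278-78620447, plus strand).
IFI6: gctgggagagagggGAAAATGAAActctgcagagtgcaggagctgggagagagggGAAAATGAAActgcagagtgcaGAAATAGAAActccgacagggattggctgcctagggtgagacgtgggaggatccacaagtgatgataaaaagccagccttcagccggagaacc
IFI27: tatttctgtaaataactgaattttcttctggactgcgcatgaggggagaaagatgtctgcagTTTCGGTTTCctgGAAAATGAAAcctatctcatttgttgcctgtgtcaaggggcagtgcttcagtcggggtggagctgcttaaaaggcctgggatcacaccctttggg
IFI44L: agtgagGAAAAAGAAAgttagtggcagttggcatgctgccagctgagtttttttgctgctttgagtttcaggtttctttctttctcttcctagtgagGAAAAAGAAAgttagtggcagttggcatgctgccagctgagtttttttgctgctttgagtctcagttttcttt
Higher on ZW27941 were OAS3 (chr12:112938304-112938473, plus strand), SAMD9 (chr7:93117980-93118149, minus strand) and PARP9 (chr3:122564301-122564470, minus strand).
OAS3: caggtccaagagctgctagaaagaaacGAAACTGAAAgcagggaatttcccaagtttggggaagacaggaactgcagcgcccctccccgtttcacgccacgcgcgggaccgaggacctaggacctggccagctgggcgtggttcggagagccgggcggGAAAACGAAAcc
SAMD9: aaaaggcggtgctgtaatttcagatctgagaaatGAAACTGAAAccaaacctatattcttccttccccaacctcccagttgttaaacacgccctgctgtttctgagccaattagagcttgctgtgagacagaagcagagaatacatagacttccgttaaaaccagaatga
PARP9: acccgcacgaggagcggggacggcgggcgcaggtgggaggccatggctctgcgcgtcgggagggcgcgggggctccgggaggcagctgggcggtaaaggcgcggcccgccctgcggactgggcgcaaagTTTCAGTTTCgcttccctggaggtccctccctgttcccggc
Not past the threshold were ISG15 (chr1:1013327-1013496, plus strand) and IFIT1 (chr10:89392453-89392622, plus strand).
ISG15: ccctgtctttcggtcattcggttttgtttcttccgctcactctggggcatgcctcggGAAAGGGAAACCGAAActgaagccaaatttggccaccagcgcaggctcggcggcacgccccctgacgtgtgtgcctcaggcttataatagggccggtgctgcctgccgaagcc
IFIT1: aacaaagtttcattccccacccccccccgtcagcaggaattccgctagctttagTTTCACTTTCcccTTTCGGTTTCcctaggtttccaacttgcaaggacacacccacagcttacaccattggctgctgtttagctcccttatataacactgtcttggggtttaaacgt
IFI6 has 3 cores in this window, IFI27, IFI44L, OAS3, ISG15 and IFIT1 have 2 each, and SAMD9 and PARP9 have 1 each. The capitals of ISG15 run on because its cores overlap. The cores nearest to the start site begin 12 bases before it in OAS3, 41 in PARP9 and 136 in SAMD9, and 73, 93 and 95 bases before it in IFI44L, IFI6 and IFI27.

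**Figure D5:**
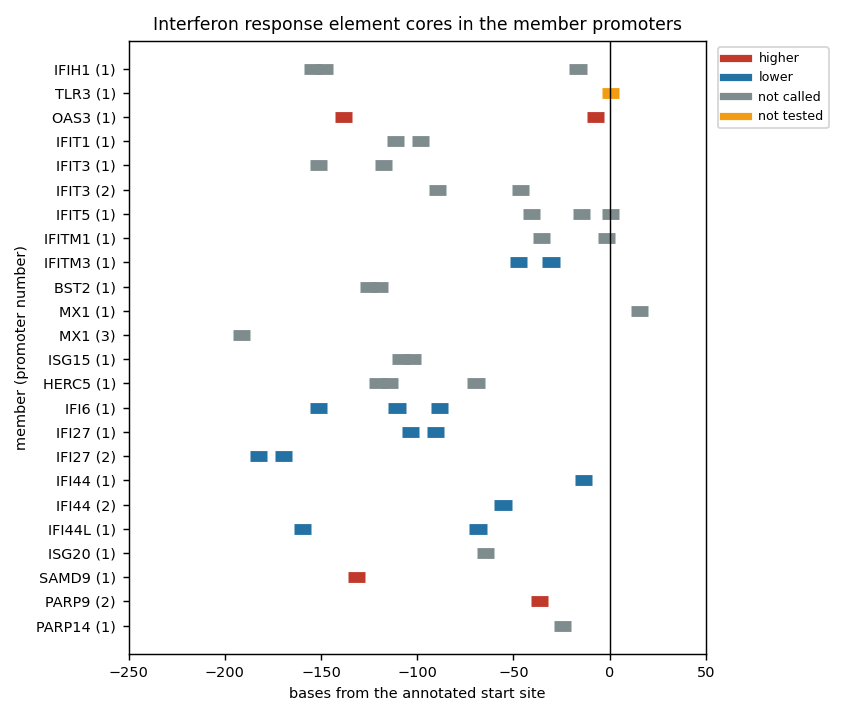
Blocks mark ISRE cores by their distance in bases from the annotated start site (line at 0), for each member promoter that holds one. Colors give the call of the gene on ZW27941. Genes that rose (red), fell (blue) and did not pass (gray) all hold cores, mostly within 200 bases before the start.

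Other genes of the pathway were taken from 4 further lists. The shares called in them were 37.1% of other sensing, 52.9% of other signalling and 38.6% of other effector genes tested, beside 30.1% of all genes and 39% of genes with a mean of at least 100 counts. Of 36 other sensing genes, 35 were tested, 11 were higher and 2 were lower, with a median log2 fold change of 0.020. Among them ADARB1, another RNA-editing deaminase, went from 45.7 ± 1.04 to 53.7 ± 1.07 CPM (mean ± SD, n = 3; log2 fold change 0.23, adjusted p = 2.35e-06). MYD88, the adaptor of TLR7 and TLR8, rose from 45.2 ± 0.718 to 50.4 ± 1.22 CPM (mean ± SD, n = 3; log2 fold change 0.16, adjusted p = 2.06e-04). SAMHD1, a nuclease that restricts reverse transcription, fell from 239 ± 4.02 to 217 ± 6.23 CPM (mean ± SD, n = 3; log2 fold change −0.14, adjusted p = 2.28e-04). EIF2AK2 encodes PKR, the kinase that stops translation when it binds double-stranded RNA. It was at 71.3, 68.2 and 74.7 CPM in DMSO and at 73.1, 67.4 and 68.3 CPM on ZW27941 and did not pass (log2 fold change −0.037, 95% interval from −0.11 to 0.033, adjusted p = 0.452).

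Of 19 other signalling genes, 17 were tested, 4 were higher and 5 were lower, with a median log2 fold change of −0.020. SOCS1, an inhibitor of JAK kinases, was at 16.1, 16.6 and 16.4 CPM in DMSO and at 21.1, 19.8 and 20.1 CPM on ZW27941, with no overlap (log2 fold change 0.32, SE 0.036, adjusted p = 9.08e-07). The chains of the interferon-gamma receptor moved apart. IFNGR1 rose (log2 fold change 0.24, SE 0.028, adjusted p = 1.20e-06), and IFNGR2 fell (log2 fold change −0.13, SE 0.025, adjusted p = 4.68e-04).

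Of 59 other effector genes, 57 were tested, 15 were higher and 7 were lower, with a median log2 fold change of 0.045. TRIM14 and TRIM21, of the same family as TRIM22, rose with log2 fold changes of 0.20 and 0.20 (SE 0.026 and 0.034, adjusted p = 5.99e-06 and 1.13e-04). GBP5, a guanylate-binding protein, and TDRD7 rose by 0.35 and 0.19 on the log2 scale (SE 0.063 and 0.034, adjusted p = 2.19e-04 and 2.25e-04). Among the 7 that fell, named here after their values were seen, the RNA helicases DDX60L and DDX60 had log2 fold changes of −0.15 and −0.17 (adjusted p = 2.33e-04 and 2.47e-04), with p-values close to that of TDRD7. EPSTI1 and IFI30 fell by more, with log2 fold changes of −0.34 and −0.68 (adjusted p = 0.00285 and 0.00424), IFI30 from a level of 0.656 CPM in DMSO. The fourth list held the 21 interferon genes given above, of which none was tested.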

How the data were processed

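The submitters' processing notes name HISAT2, SAMtools 1.19.2 and HTSeq 2.0.3 with hg38, and the annotation and strand setting are not given in the sources used here. The deposited values are the HTSeq output of the authors for each of 6 libraries, raw counts by gene symbol with no normalization. The 5 HTSeq tallies of unassigned reads were left out (37.4% to 39.8% of the reads tallied per library). Differences were tested with edgeR 4.0.16 in R 4.3.3 (TMM, filterByExpr, quasi-likelihood test, Benjamini-Hochberg adjustment over 20399 genes, threshold 0.05), with DESeq2 1.42.0 as an alternative, and the biological coefficient of variation was 3.11%. A value of 0.1 was added to CPM before a log. The fit was tested on simulated counts for ZW27941 against DMSO over 20117 genes, and recovered 94.5% of 200 changed genes that had a mean of at least 100 counts, with 11 false calls. The planted log2 changes were at least 0.5 in size, and all but 2 of the members called changed by less. The check therefore does not cover changes as small as most of those reported here.

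The members, lists and tests were chosen with earlier results of these data known. The genes given with values in each library were the members past the threshold with a mean of at least 1 CPM (TLR7 by its mean over all libraries), 11 textbook members and the highest per length. From the other lists these were the 4 with the lowest p in each and EIF2AK2, and some that this rule names are not reported here. Others, such as DTX3L, were named after their values were seen. Replicate numbers did not pair the libraries, and alternatives are given below. Lists of markers of T and NK, B, plasmacytoid dendritic, erythroid, epithelial and fibroblast cells were read as levels. Their summed CPM in any library ran from 58.2 to 62.7, from 27.1 to 30.2, from 81.8 to 100.3, from 0 to 0.0199, from 7.04 to 7.78 and from 1.34 to 2.02. Gene loci and lengths came from GENCODE v29 (GRCh38).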

Additional observations from a re-analysis of the deposited data

How the results depend on the processing

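The alternatives were 3 other normalizations, DESeq2, edgeR's likelihood ratio test, other filters, a replicate block, thinning to the smallest library total and each library left out in turn. Of the 24 members called, 15 kept their call in all 15 alternatives, and 0 changed sign in any. Of the 22 others, 16 passed in none and 7 changed sign in at least 1. The number of members called, 24, ran from 19 to 25 when 1 library was left out, and the number of lower effectors, 7, from 4 (without DMSO replicate 2, DMSO replicate 3 or ZW27941 replicate 2) to 9. The number of members called was 27 with upper quartile normalization and 25 with DESeq2, 22 with no filter, 21 with library size only, 22 after thinning, and 22 with the replicate block. Same-numbered libraries did not deviate together (correlations across genes of −0.014, 0.014 and 0.032), so the block is only an alternative, in which IFNAR1 and IFI35 no longer passed. Log2 fold changes that changed sign were, with upper quartile normalization, −0.015 for MAVS, while the BST2 log2 fold change was −0.0054. When 1 library was left out they ran from −0.013 to 0.032 for MAVS, −0.033 to 0.12 for IFIT5, −0.084 to 0.019 for IFITM1, −0.035 to 0.012 for IFITM2, −0.024 to 0.039 for BST2, −0.10 to 0.068 for ISG15 and −0.049 to 0.011 for HERC6. The cause was not tested. With 3 libraries a group, changes of a few percent are at the limit of what the spread between libraries lets pass. With upper quartile normalization the median over all genes was −0.025, against −0.0019.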
